A study of Homo sapiens with 10 samples.

Results

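The 10 genes described here encode the regulators of mitochondrial biogenesis around GABPB1: the GABP subunits GABPA, GABPB1 and GABPB2, the transcription factor NRF1, the nuclear receptor ESRRA, the coactivators PPARGC1A, PPARGC1B and PPRC1, and the mitochondrial DNA factors TFAM and TFB2M. They were chosen by gene symbol, and all 10 were found among the 28380 genes of the count file. RPE-1, a human retinal pigment epithelial line immortalized with telomerase, was treated for 4 h with 25 µM sulforaphane (SFN), an isothiocyanate from cruciferous vegetables, or with the vehicle dimethyl sulfoxide (DMSO). Each group had 5 replicates, and no other agent or genotype was given for either group. The labels do not say whether replicates were separate cultures, so p-values measure only the spread between these samples.

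Mitochondrial biogenesis needs genes of the nucleus and of the mitochondrial genome to be transcribed together. NRF1 and GABP bind nuclear promoters of respiratory chain subunits and of the factors that copy and transcribe mitochondrial DNA, and the PGC-1 family of coactivators, which does not bind DNA itself, is recruited by them and by nuclear receptors such as ESRRA. GABP is made of an ETS domain subunit that binds DNA, encoded by GABPA, and a beta subunit that activates transcription, encoded by GABPB1 or GABPB2. GABP has also been called nuclear respiratory factor 2, and it is a different protein from NFE2L2, the oxidative stress factor that SFN is best known for activating.

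Libraries were made with Lexogen QuantSeq, which reads the 3′ ends of polyadenylated transcripts, and held 15689294 to 20666692 counts in DMSO and 12375860 to 17308706 in SFN. Levels are given in CPM, counts in proportion to library size as scaled by the TMM method of edgeR, and a gene was called changed at an adjusted p under 0.05 by edgeR's quasi-likelihood test over the 13378 genes with enough counts. Among all genes tested, 9.07% were called higher and 13.9% lower in SFN. DMSO replicate 1 stood apart. Averaged over its own group, its rank correlation across genes (Spearman) was 0.935, against 0.979 to 0.982 for DMSO replicates 2 to 5, and for each doubling of transcript length its log2 CPM changed by -0.26 relative to the mean of all libraries, against 0.08 to 0.14 in the other DMSO libraries and -0.17 to 0.10 in SFN. Results that rest on this library are therefore given with and without it. Of 12 markers of retinal pigment epithelium, 10 were found and 4 had enough counts for the test, the defining marker RPE65 had no count in any DMSO library, and the summed level was 62.5 to 104 CPM in DMSO and 55.8 to 137 CPM in SFN. Of the 4 tested, MITF (log2 fold change -1.12, adjusted p = 5.27e-05 by edgeR) and OTX2 (-0.64, adjusted p = 0.00288 by edgeR) were called lower without overlap, while BEST1, at 5.42 to 41.8 CPM in DMSO and 19.4 to 107 CPM in SFN, and PMEL were not called. The summed level of the 2 blood markers found was at most 1.43 CPM and that of 5 endothelial markers at most 5.98 CPM, of which KDR was called lower (-1.77, adjusted p = 0.00934 by edgeR). The part of these markers in the results was not tested.

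Of the 10 genes, 9 passed the filter on low counts. Among these, GABPB1 and GABPA were called higher and PPARGC1B and PPRC1 lower, and GABPB2, NRF1, ESRRA, TFAM and TFB2M were not called. PPARGC1A had too few counts and is described by its counts. PPARGC1B passed the filter through its DMSO libraries, so its place among the genes called lower is not support from the number of calls. In these bulk samples, fewer cells expressing a gene and less RNA per cell cannot be told apart.

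**Figure D1:**
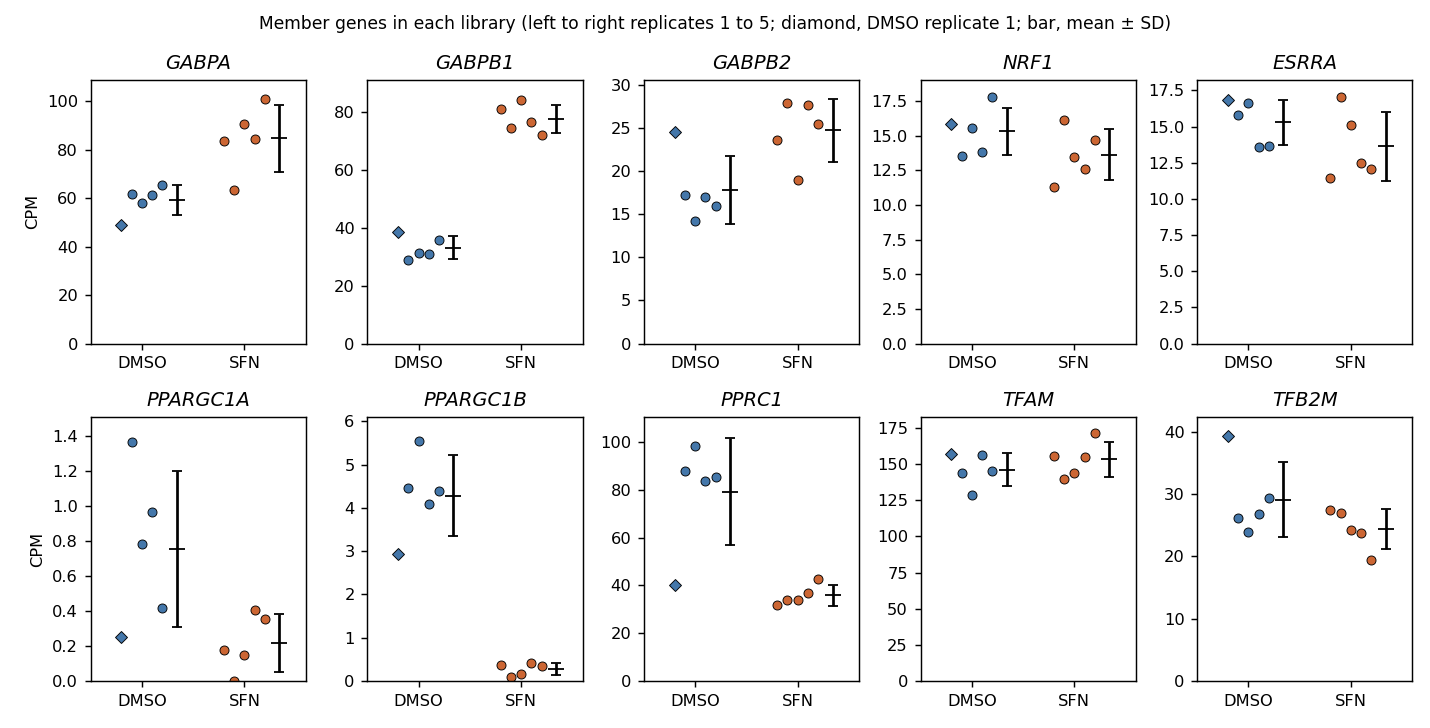
Level of each of the 10 genes in CPM (y axis, linear from 0) in the 5 DMSO and 5 SFN libraries; points are libraries in replicate order, diamonds mark DMSO replicate 1 and bars give the mean ± SD. GABPB1 lay between 72.2 and 84.1 CPM in SFN, above every DMSO library, and PPARGC1B lay at or below 0.405 CPM in SFN, against at least 2.93 CPM in DMSO.

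Of the GABP subunits, GABPB1 and GABPA were called higher. GABPB1 more than doubled, GABPA rose by 1.43-fold, and GABPB2 was 1.39-fold higher in the fit without being called. GABPB1 (ENSG00000104064, chr15:50275389-50355408 of GRCh38, minus strand) encodes the beta subunit that brings the activation domain to the complex. Its 5 DMSO libraries were at 38.6, 28.9, 31.3, 31.1 and 35.7 CPM in replicates 1 to 5, and its SFN libraries at 81.0, 74.5, 84.1, 76.7 and 72.2 CPM. Every SFN library was therefore above every DMSO library, and the highest DMSO library was replicate 1. The log2 fold change was 1.23 (standard error 0.11, 95% interval 0.99 to 1.47, adjusted p = 1.24e-05 by edgeR), which placed GABPB1 at rank 121 of the genes tested by p. Without overlap between the groups, SFN was above DMSO in 8.78% of all genes tested. The deposited value is 1 count per gene, so isoforms of GABPB1 were not separated.

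GABPA (ENSG00000154727, chr21:25734570-25772460, plus strand) encodes the subunit that binds DNA. It was at 49.1, 61.8, 57.9, 61.1 and 65.5 CPM in DMSO and at 83.6, 63.6, 90.6, 84.4 and 101 CPM in SFN. SFN replicate 2 was below DMSO replicate 5, and the other SFN libraries were above all of DMSO. The log2 fold change was 0.52 (standard error 0.13, 95% interval 0.23 to 0.81, adjusted p = 0.0147 by edgeR). With libraries scaled by their totals only, it was 0.43 and was not called (adjusted p = 0.0811 by edgeR). GABPB2 (ENSG00000143458, chr1:151070578-151125542, plus strand) encodes the other beta subunit.

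GABPB2 was at 24.5, 17.2, 14.2, 17.05 and 15.9 CPM in DMSO and at 23.7, 28.0, 18.9, 27.7 and 25.4 CPM in SFN. DMSO replicate 1 lay among the SFN libraries, while the other DMSO libraries were all below SFN. The log2 fold change was 0.48 (standard error 0.16, 95% interval 0.12 to 0.83, adjusted p = 0.0554 by edgeR). Without DMSO replicate 1 it was 0.61 and was called higher (adjusted p = 0.00107 by edgeR). In that fit, without DMSO replicate 1, 22.5% of all genes tested were called higher and 23.5% lower, and 3 of the 9 genes were higher and 2 lower. GABPB1 was at 1.29 and GABPA at 0.45 in that fit, both called. GABPB2 was also called without SFN replicate 3 (0.56, adjusted p = 0.0374 by edgeR), where 906 genes were called higher and 1477 lower.

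**Figure D2:**
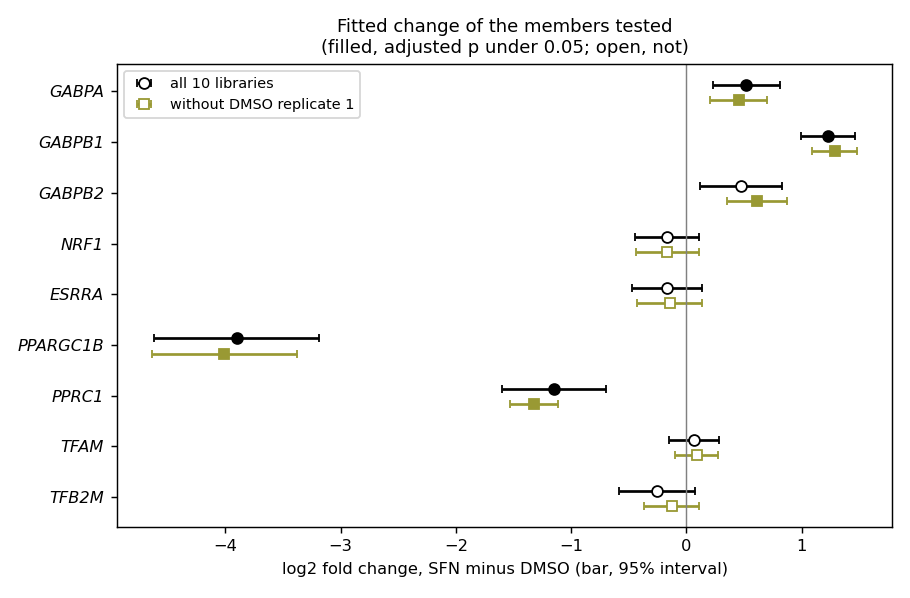
Log2 fold change of the 9 genes tested, SFN minus DMSO (x axis), with 95% intervals, from all 10 libraries (circles) and without DMSO replicate 1 (squares); filled symbols had an adjusted p under 0.05. GABPB1 and PPARGC1B kept intervals far from 0 in both fits, and GABPB2 was filled only without DMSO replicate 1.

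Promoters of both GABP genes that rose are shown because the data concern their transcripts and because the ETS motif bound by GABP itself can be looked for in them. Each runs from 250 bases before to 50 bases from the start of the canonical transcript in GENCODE 44, read from hg38 on the strand of the gene, with motif matches in capitals. The window of GABPB1 is chr15:50355149-50355448 on the minus strand and that of GABPA is chr21:25734722-25735021 on the plus strand.
GABPB1 promoter: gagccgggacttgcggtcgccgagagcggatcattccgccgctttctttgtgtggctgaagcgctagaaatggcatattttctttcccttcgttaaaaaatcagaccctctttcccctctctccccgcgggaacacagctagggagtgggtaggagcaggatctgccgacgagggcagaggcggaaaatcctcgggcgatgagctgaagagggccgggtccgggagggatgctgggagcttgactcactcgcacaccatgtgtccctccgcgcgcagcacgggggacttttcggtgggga
GABPA promoter: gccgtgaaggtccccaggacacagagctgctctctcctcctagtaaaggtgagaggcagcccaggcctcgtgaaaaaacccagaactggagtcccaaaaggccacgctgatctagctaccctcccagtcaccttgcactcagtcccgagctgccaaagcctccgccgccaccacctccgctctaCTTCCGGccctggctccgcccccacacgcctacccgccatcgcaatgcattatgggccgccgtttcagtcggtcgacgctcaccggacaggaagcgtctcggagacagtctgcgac
The 8 motifs searched on both strands were NRF1 (GCGCATGCG or GCGCACGCG), GABP and other ETS factors (CCGGAAG), the cAMP response element (TGACGTCA), the ATF4 composite element (TGATGNAA), the antioxidant response element (TGACNNNGC), the heat shock element (GAANNTTC or TTCNNGAA), EGR (GCGGGGGCG) and the estrogen-related receptor element (AAGGTCA). The GABPB1 window held none of these, and the GABPA window held 1 ETS match, 66 bases before the start. An ETS match was present in 14.1% of 20033 promoters of protein-coding genes. G and C made up 60.3% of the GABPB1 window and 62.7% of the GABPA window, against a median of 63.7% over all promoters.

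Ratios of counts within a library do not depend on how libraries are scaled, but they are not ratios of molecules, since reads per transcript differ between genes. For GABPB1 to GABPA the ratio was 0.786, 0.468, 0.541, 0.510 and 0.545 in DMSO and 0.969, 1.17, 0.929, 0.909 and 0.714 in SFN. The groups overlapped only because DMSO replicate 1 was above SFN replicate 5. The ratio was 1.65-fold higher in SFN (log2 difference 0.73, exact two-sided permutation p = 0.0159, 0.0317 after Benjamini-Hochberg adjustment over 4 ratios). The ratio of GABPB2 to GABPA ranged from 0.243 to 0.4997 in DMSO and from 0.209 to 0.440 in SFN, and its log2 difference of -0.02 (exact permutation p = 0.992) turned to 0.17 without DMSO replicate 1. Leaving out each library in turn, the log2 difference for GABPB1 to GABPA was 0.64 to 0.85, with adjusted p under 0.05 by exact permutation in 3 of 10 cases, and for GABPB2 to GABPA the direction was not fixed.

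**Figure D3:**
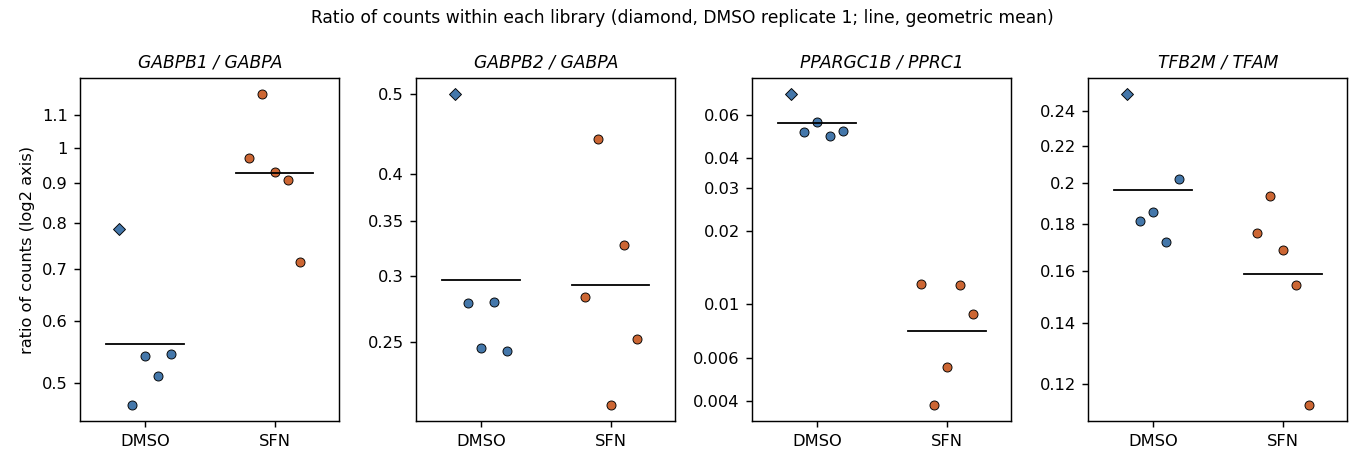
Ratio of the counts of 2 genes within each library (y axis, log2 scale) for 4 pairs; points are libraries in replicate order, diamonds mark DMSO replicate 1 and lines are geometric means. The ratio of PPARGC1B to PPRC1 was at least 0.0493 in DMSO and at most 0.0121 in SFN, without overlap.

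NRF1 (ENSG00000106459, chr7:129611720-129757082, plus strand) encodes nuclear respiratory factor 1, which binds GC-rich palindromes in promoters of respiratory genes. It was at 15.8, 13.6, 15.5, 13.9 and 17.8 CPM in DMSO and at 11.3, 16.1, 13.5, 12.6 and 14.7 CPM in SFN. The groups overlapped widely, and the log2 fold change of -0.17 (95% interval -0.45 to 0.11, adjusted p = 0.402 by edgeR) was smaller than the spread between replicates. ESRRA (ENSG00000173153, chr11:64305497-64316743, plus strand) encodes estrogen-related receptor alpha, an orphan receptor through which PGC-1 coactivators act on oxidative genes. It was at 16.8, 15.8, 16.6, 13.6 and 13.7 CPM in DMSO and at 11.4, 17.1, 15.1, 12.5 and 12.1 CPM in SFN. SFN replicate 2 was the highest library of all, and the log2 fold change was -0.17 (95% interval -0.47 to 0.13, adjusted p = 0.437 by edgeR). A missed threshold does not show that either gene was unchanged, and the 95% intervals still hold a modest fall of each.

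Of the PGC-1 family, PPARGC1B and PPRC1 were called lower. PPARGC1B fell to close to the counting limit, PPRC1 was 2.21-fold lower, and PPARGC1A was at few counts in both groups. PPARGC1B (ENSG00000155846, chr5:149730298-149855022, plus strand) encodes PGC-1 beta, a coactivator of nuclear receptors and of NRF1 in oxidative and lipid metabolism. Its raw counts were 47, 98, 99, 68 and 74 in DMSO and 6, 1, 2, 6 and 5 in SFN. In CPM these were 2.93, 4.47, 5.53, 4.10 and 4.38 against 0.358, 0.0863, 0.149, 0.405 and 0.353. No SFN library came near the lowest DMSO library, which was replicate 1, and SFN lay below DMSO without overlap in 11.1% of all genes tested.

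The log2 fold change of PPARGC1B was -3.90 (standard error 0.33, 95% interval -4.62 to -3.19, adjusted p = 8.81e-06 by edgeR). Its 386 DMSO counts against 20 SFN counts gave a depth-corrected ratio of 15.3 (exact Clopper-Pearson 95% interval 9.76 to 25.3, counting error only). Without DMSO replicate 1 the log2 fold change was -4.01 (adjusted p = 1.85e-07 by edgeR). Because SFN libraries held 1 to 6 counts, the size of the fall is known far less well than its direction. MIR378A, the microRNA gene inside PPARGC1B, was not analysed here.

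PPRC1 (ENSG00000148840, chr10:102132994-102150333, plus strand) encodes PRC, the PGC-1 related coactivator that is known as a growth-induced partner of NRF1 and GABP. It was at 40.3, 88.0, 98.5, 83.7 and 85.5 CPM in DMSO and at 31.9, 33.7, 33.8, 36.7 and 42.7 CPM in SFN. DMSO replicate 1 lay within the SFN range, just below SFN replicate 5, and the other DMSO libraries were at about the same level as each other. The log2 fold change was -1.15 (standard error 0.21, 95% interval -1.60 to -0.70, adjusted p = 0.00185 by edgeR). Without DMSO replicate 1 it was -1.32 (SE 0.10, adjusted p = 1.95e-07 by edgeR). PPRC1 was called lower with and without that library, and its groups overlapped only through it.

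PPARGC1A (ENSG00000109819, chr4:23755041-23904089, minus strand) encodes PGC-1 alpha, which cold, fasting and exercise are known to induce in other tissues. Its counts were 4, 30, 14, 16 and 7 in DMSO and 3, 0, 2, 6 and 5 in SFN. Summed over libraries these were 71 and 16 counts, a depth-corrected ratio of 3.51 (exact Clopper-Pearson 95% interval 2.02 to 6.48, counting error only), and the groups overlapped. Fitted without a filter on low counts, the log2 fold change was -1.76 (standard error 0.62) and was not called (adjusted p = 0.0841 by edgeR). The single SFN library with a count of 0 allows up to 3 counts, or 0.259 CPM. The overlap came only from DMSO replicate 1, at 0.249 CPM. The other DMSO libraries were at 0.414 to 1.37 CPM, and no SFN library was above 0.405 CPM. PPARGC1A also failed the filter on low counts with that library left out, so no such fit is given. At counts this low a fall of PPARGC1A was not established.

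Within libraries the PGC-1 genes also moved apart. The ratio of PPARGC1B to PPRC1 counts was 0.0734, 0.0510, 0.0565, 0.0493 and 0.0516 in DMSO and 0.0121, 0.00383, 0.00550, 0.0119 and 0.00908 in SFN. It was 7.20-fold lower in SFN (log2 difference -2.85, exact two-sided permutation p = 0.00794, the smallest that 5 against 5 libraries can give, 0.0317 after adjustment over 4 ratios). The ratio was lower in each SFN library than in any DMSO library. Leaving out each library in turn, the adjusted p was 0.0317 to 0.0635 by exact permutation and was under 0.05 in 3 of 10 cases, without DMSO replicate 1, SFN replicate 2 or SFN replicate 5. The groups stayed apart in every case, so the exact permutation p was always 0.0159, the smallest that 4 against 5 libraries allow. The adjusted p therefore differed only through the p-values of the other ratios and does not measure how stable this ratio was.

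Promoters of both coactivator genes called lower are shown for the same motifs, which are in capitals. The window of PPARGC1B is chr5:149730060-149730359 and that of PPRC1 is chr10:102132790-102133089 of hg38, both on the plus strand.
PPARGC1B promoter: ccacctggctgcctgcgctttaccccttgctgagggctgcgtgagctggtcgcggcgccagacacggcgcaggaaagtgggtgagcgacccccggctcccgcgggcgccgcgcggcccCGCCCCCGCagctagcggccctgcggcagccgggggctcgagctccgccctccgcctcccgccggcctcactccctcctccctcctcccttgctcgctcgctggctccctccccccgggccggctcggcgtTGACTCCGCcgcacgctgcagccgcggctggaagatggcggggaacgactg
PPRC1 promoter: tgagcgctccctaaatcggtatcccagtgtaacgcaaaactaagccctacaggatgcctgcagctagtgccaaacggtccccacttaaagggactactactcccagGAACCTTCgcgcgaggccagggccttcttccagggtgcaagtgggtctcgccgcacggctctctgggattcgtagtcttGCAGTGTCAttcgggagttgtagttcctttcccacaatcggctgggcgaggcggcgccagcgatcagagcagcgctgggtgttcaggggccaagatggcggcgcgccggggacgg
The PPARGC1B window held 1 EGR match, 132 bases before the start, and 1 match to the antioxidant response element whose first base lies 1 base before the start. The PPRC1 window held 1 heat shock element match, 144 bases before the start, and 1 antioxidant response element match, 65 bases before it. Over all promoters these motifs were present in 7.85% (EGR), 14.03% (antioxidant response element) and 11.04% (heat shock element). G and C made up 76.7% of the PPARGC1B window and 61.0% of that of PPRC1. In PPARGC1A, the cAMP response element through which CREB is known to act on this gene was found 132 bases before the start, in the window chr4:23889998-23890297 (minus strand), and is shown with 10 bases on each side.
PPARGC1A cAMP response element: tgcctttgagTGACGTCAcgagttagag
A cAMP response element match was present in 2.69% of all promoters. The PPARGC1A window also held an antioxidant response element match, as did that of TFB2M, so 4 of the 10 windows held this motif. No match to the ATF4 composite element (2.50% of all promoters) or the estrogen-related receptor element (2.89%) was found in any of the 10. None of the matches overlapped another, and a match is a string of letters and not a bound site.

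The factors that act on mitochondrial DNA itself were not called. TFAM (ENSG00000108064, chr10:58385345-58399220, plus strand) encodes the protein that packages mitochondrial DNA and bends its promoters. It was at 157, 144, 129, 156 and 145 CPM in DMSO and at 156, 139.8, 144, 155 and 172 CPM in SFN. Its log2 fold change of 0.07 (standard error 0.10, 95% interval -0.15 to 0.28, adjusted p = 0.688 by edgeR) was -0.01 with libraries scaled by their totals only and -0.02 with quantile normalized limma-voom. TFAM had the narrowest interval of the 9 genes tested, and its direction was not fixed.

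TFB2M (ENSG00000162851, chr1:246540561-246566261, minus strand) encodes the transcription initiation factor that opens mitochondrial promoters with the RNA polymerase POLRMT. It was at 39.4, 26.1, 23.9, 26.9 and 29.4 CPM in DMSO and at 27.4, 27.0, 24.3, 23.8 and 19.5 CPM in SFN. DMSO replicate 1 was the highest and SFN replicate 5 the lowest, and the log2 fold change was -0.25 (95% interval -0.59 to 0.08, adjusted p = 0.269 by edgeR). It was -0.13 without DMSO replicate 1 (adjusted p = 0.371 by edgeR). The ratio of TFB2M to TFAM ranged from 0.172 to 0.251 in DMSO and from 0.114 to 0.193 in SFN, a log2 difference of -0.31 that was not past the threshold (exact two-sided permutation p = 0.0794, 0.106 after adjustment) except without SFN replicate 2 (-0.38, adjusted p = 0.0423). TFB2M was the only one of the 10 genes with an NRF1 motif in its window (chr1:246566212-246566511, minus strand), 16 bases before the start. It is shown with 10 bases on each side, and 5.38% of all promoters held this motif.
TFB2M NRF1 motif: ctccgctgttCGCATGCGCaggctctagt

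Genes that overlap one of the 10 or start within 1 kb of one were examined because their reads or promoters may be shared. Of 15 such genes, 7 were tested and 1 was called, where 9.07% of all genes tested were called higher and 13.9% lower. A single call among so few genes is not read as a result about the neighbours. CNST, a gene of secretory traffic that starts 183 bases from TFB2M on the opposite strand, was at 18.1, 32.8, 30.0, 32.8 and 32.8 CPM in DMSO and at 56.7, 44.9, 50.6, 53.2 and 68.1 CPM in SFN. Every SFN library was above DMSO (log2 fold change 0.90 with an SE of 0.18, adjusted p = 0.0031 by edgeR), whereas TFB2M itself was not called. GABPB1-AS1, which starts inside GABPB1 on the opposite strand and covers its promoter window, went from 16.8 ± 5.21 CPM in DMSO to 21.3 ± 4.65 CPM in SFN (SD, n = 5 each, log2 fold change 0.34, adjusted p = 0.284 by edgeR). GABPB1-IT1, within GABPB1 on the same strand, was at 5.22 ± 1.41 CPM in DMSO and 4.13 ± 0.748 CPM in SFN (SD, n = 5 each, log2 fold change -0.33, adjusted p = 0.299 by edgeR). Neither was called. Whether counting used strand was not given in the sources used here, so reads of GABPB1 and GABPB1-AS1 cannot be told apart with certainty.

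The remaining neighbours tested were ATP5PF beside GABPA (log2 fold change 0.31, adjusted p = 0.467 by edgeR), CDC42SE1 beside GABPB2 (0.20, adjusted p = 0.455), TRMT112 at the end of ESRRA (0.15, adjusted p = 0.744) and an unnamed non-coding RNA beside NRF1, ENSG00000273329 (-1.11, adjusted p = 0.060). ATP5PF encodes a subunit of the mitochondrial ATP synthase and shares its promoter region with GABPA. ATP5PF was at 87.4 ± 41.2 CPM in DMSO and 108 ± 26.9 CPM in SFN (SD, n = 5 each). TRMT112 was at 113 ± 48.8 CPM in DMSO and 125 ± 29.9 CPM in SFN (SD, n = 5 each). With this spread in DMSO, a missed call does not show that either gene was unchanged. The neighbours are not given without DMSO replicate 1, so no contrast between ATP5PF and GABPA is drawn.

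Partners of the 10 genes were taken from 5 lists. The machinery of mitochondrial DNA transcription and replication had 27 genes tested, of which 6 were called lower and 3 higher. These are 22.2% and 11.1%, against 13.9% and 9.07% of all genes tested. The median log2 fold change was -0.28 against -0.03 over all genes tested. Without DMSO replicate 1, 8 of the list were lower and 6 higher, with a median of -0.05. In that fit, 23.5% of all genes tested were called lower and 22.5% higher. Only 1 of the list was higher with libraries scaled by their totals only or with no filter. The RNA polymerase of mitochondria, POLRMT, fell from 28.6 ± 3.91 to 13.002 ± 1.31 CPM (SD, n = 5 each, log2 fold change -1.14, adjusted p = 7.38e-05 by edgeR). The replicative helicase gene TWNK fell from 58.9 ± 3.25 to 27.1 ± 2.20 CPM (log2 fold change -1.12, adjusted p = 1.27e-05 by edgeR). Both were without overlap between the groups, as were MTERF2, of the mitochondrial termination factor family, at -1.11, and the mitochondrial nuclease gene EXOG at -0.71, both also called lower.

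The other 2 genes of this list called lower, DNA2 (-0.68) and LIG3 (-0.59), a nuclease-helicase and a DNA ligase that also serve the nucleus, overlapped between groups through DMSO replicate 1. The 3 called higher were the exonuclease gene MGME1 (0.50), the protease gene LONP1 (0.41), whose product degrades TFAM that is not bound to DNA, and MPV17 (0.40), an inner membrane protein needed to keep mitochondrial DNA. DNA2, LIG3, MGME1, LONP1 and MPV17 are named after their values were seen. Thus POLRMT, the partner of TFB2M, was lower while TFB2M and TFAM were not called.

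**Figure D4:**
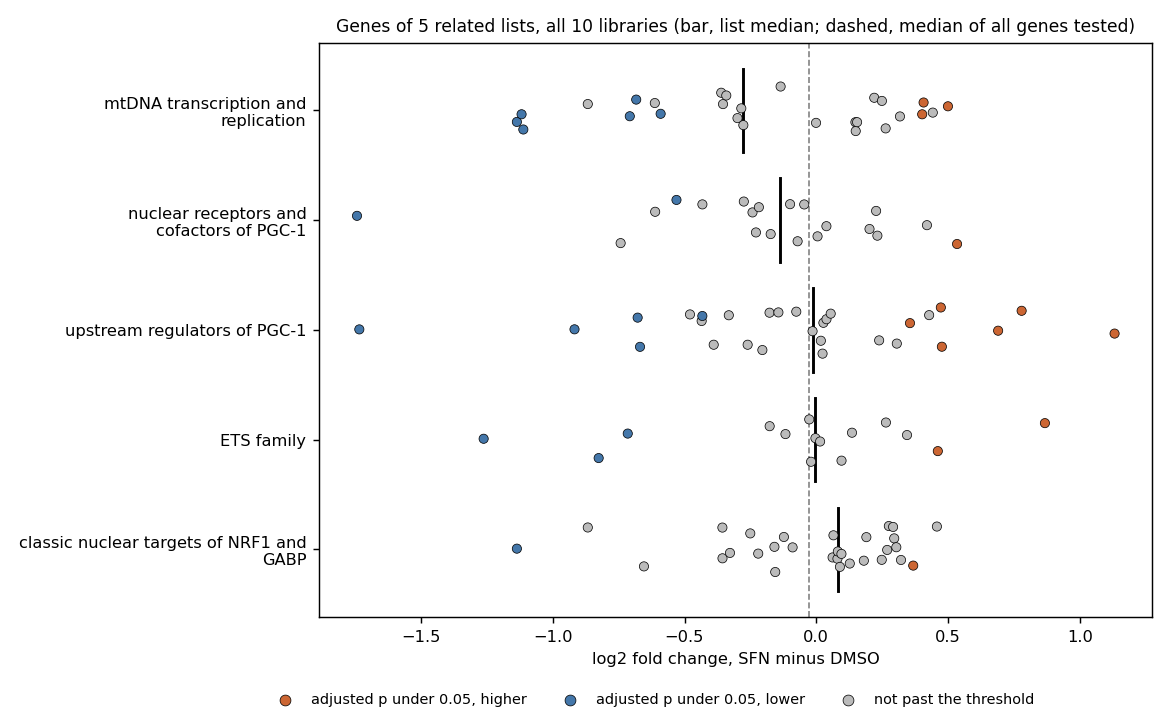
Log2 fold change, SFN minus DMSO (x axis), of every gene tested in 5 lists (rows); orange points were called higher and blue points lower, gray points were not called, bars are list medians and the dashed line is the median of all genes tested. The list of mitochondrial DNA factors had a median of -0.28 and the nuclear targets of NRF1 and GABP one of 0.08.

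Nuclear receptors and cofactors that work with PGC-1 had 20 genes tested, of which 2 were called lower and 1 higher (median log2 fold change -0.14), or 10% and 5% (13.9% and 9.07% of all genes). These were 6 and 1 without DMSO replicate 1, where 23.5% of all genes tested were called lower and 22.5% higher. Only 1 was lower without DMSO replicate 3, DMSO replicate 4, SFN replicate 1 or SFN replicate 3. NR1D1, the circadian repressor REV-ERB alpha, fell from 2.09 ± 0.492 to 0.612 ± 0.326 CPM (SD, n = 5 each, log2 fold change -1.74, adjusted p = 0.00339 by edgeR). Its counts were 28 to 44 a library in DMSO and 3 to 15 in SFN. NR1D1 passed the filter through its DMSO libraries, so its lower call is not support from the number of calls. RXRA, the shared partner of many nuclear receptors, was at -0.53 (adjusted p = 0.0294 by edgeR). YY1, a zinc finger factor known to work with PGC-1 alpha on mitochondrial genes, rose from 100.02 ± 6.81 to 145 ± 7.28 CPM (log2 fold change 0.53, adjusted p = 0.0012 by edgeR), with every SFN library above every DMSO library.

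Upstream regulators of PGC-1 had 29 genes tested, of which 6 were called higher and 5 lower (median -0.01), or 20.7% and 17.2% against 9.07% and 13.9% of all genes. They were 7 and 10 without DMSO replicate 1, where 22.5% of all genes tested were called higher and 23.5% lower. Only 3 were higher without DMSO replicate 4 or SFN replicate 3, with libraries scaled by their totals only or with no filter. Only 3 were lower without SFN replicate 1 or 3. MYC, a growth factor-induced transcription factor that also acts on mitochondrial genes, was at 42.9 to 49.1 CPM in DMSO and 84.2 to 120.4 CPM in SFN (log2 fold change 1.13, adjusted p = 3.13e-05 by edgeR). ATF2, a stress kinase target that acts on the PPARGC1A promoter, was higher at 0.78 (adjusted p = 0.0103 by edgeR), with overlap. TFEB, a lysosomal regulator that acts on PPARGC1A, was lower at -1.73 (adjusted p = 0.00287 by edgeR). It had 18 to 43 counts a library in DMSO and 5 to 13 in SFN. TFEB passed the filter through its DMSO libraries, so its lower call is not support from the number of calls. PRKAB2, a beta subunit of AMP-activated protein kinase, was lower at -0.92 (adjusted p = 0.000389 by edgeR). The calls on this kinase were divided, with PRKAA1, PRKAA2 and PRKAB2 lower and PRKAB1 and PRKAG1 higher; all but PRKAB2 are named after their values were seen.

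The ETS family, to which GABPA belongs and whose members share the same core motif, had 15 other genes tested, of which 3 were called lower and 2 higher (median -0.0032), and the counts were the same without DMSO replicate 1 (median 0.0073). These are 13.3% higher and 20% lower, against 9.07% and 13.9% of all genes tested. Without DMSO replicate 1, 22.5% of all genes tested were called higher and 23.5% lower, so the list was then below both shares. ELF1 fell from 26.1 ± 4.22 to 10.9 ± 2.70 CPM (SD, n = 5 each, log2 fold change -1.26, adjusted p = 0.000565 by edgeR). ERF, a repressor, was at -0.83 (adjusted p = 0.00029 by edgeR) and FLI1 at -0.72 (adjusted p = 0.00932 by edgeR), both lower without overlap. ETV5 rose from 35.3 ± 4.81 to 64.4 ± 2.73 CPM (log2 fold change 0.87, adjusted p = 0.000202 by edgeR), and ELK3, the other one called higher and named after its values were seen, was at 0.46.

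Classic nuclear targets of NRF1 and GABP, mostly subunits of the respiratory chain, had 30 genes tested, and 1 was called higher and 1 lower (median 0.08). These are 3.33% each way, against 9.07% higher and 13.9% lower over all genes tested. The one higher was ATP5F1B, the beta subunit of ATP synthase, from 317 ± 9.77 to 409 ± 51.8 CPM (SD, n = 5 each, log2 fold change 0.37, adjusted p = 0.0263 by edgeR), and the one lower was POLRMT, which both lists hold. ATP5F1B was not called without DMSO replicate 2, 4 or 5 or SFN replicate 1, and 2 targets were called higher without SFN replicate 5. Without DMSO replicate 1, 20 of the 30 (66.7%) were called higher and 2 lower, with a median log2 fold change of 0.39. In that fit, 22.5% of all genes tested were called higher and 23.5% lower. In DMSO replicate 1, 25 of the 30 (83.3%) were at the highest level of the DMSO libraries, against 40.5% of all genes tested, and the median log2 difference between that library and the other DMSO libraries was 1.16 for the list and -0.04 for all genes. The canonical transcripts of the list had a median length of 1137 bases against 3173 bases over all genes tested. The part of transcript length in this result was not tested.

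COX17, the copper chaperone of cytochrome oxidase, chosen as an example after its values were seen, was at 274 CPM in DMSO replicate 1 and at 51.7, 49.8, 45.7 and 43.8 CPM in the other DMSO libraries. Its SFN libraries were at 73.1, 107.8, 92.0, 76.8 and 40.9 CPM. The log2 fold change was -0.25 with all libraries (adjusted p = 0.783 by edgeR) and 0.70 without DMSO replicate 1 (adjusted p = 0.0106 by edgeR). For these targets, then, a single control library decided between almost no calls and a majority called higher, whereas the calls on GABPB1, GABPA, PPARGC1B and PPRC1 were made with and without it.

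**Figure D5:**
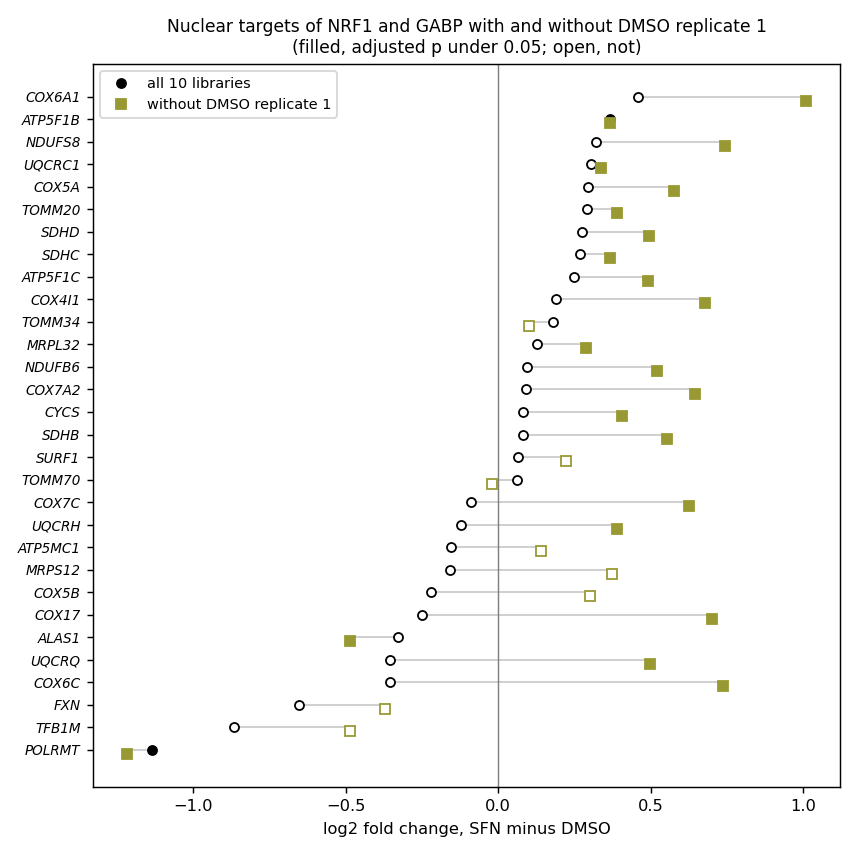
Log2 fold change, SFN minus DMSO (x axis), of the 30 nuclear targets of NRF1 and GABP tested (rows), with all 10 libraries (circles) and without DMSO replicate 1 (squares); filled symbols had an adjusted p under 0.05. With all libraries 2 circles are filled, and without DMSO replicate 1 there are 22 filled squares, 20 of them to the right of 0.

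Among 8650 genes with a mean of at least 10 CPM, the 5 whose log2 CPM followed GABPB1 most closely over the 10 libraries were EAF1, DDIT4, PMAIP1, DNAJB9 and FAM72C, with Pearson correlations of 0.992, 0.990, 0.990, 0.989 and 0.989. The points share treatment, libraries and depth, so this is a description with no p. EAF1, a partner of the ELL elongation factors, was at 34.8 CPM in DMSO and 75.9 CPM in SFN. DDIT4, an inhibitor of mTORC1 signaling, went from 4.20 to 103 CPM and PMAIP1, the apoptosis gene also called NOXA, from 43.9 to 197 CPM. DNAJB9, a chaperone of the endoplasmic reticulum, went from 15.8 to 59.4 CPM, and FAM72C from 5.18 to 21.5 CPM. FAM72C has near-identical copies among which reads can be split, so its value is uncertain.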

How the data were processed

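RNA of RPE-1 cells in 10 libraries, 5 DMSO and 5 SFN, was sequenced by the authors with Lexogen QuantSeq and aligned with the Bluebee pipeline. The authors deposited 1 raw count for each Ensembl gene and library, without normalization. The submitters' processing notes list FastQC, STAR, featureCounts, edgeR and the builds hg38 and GRCh38. Their versions, the use of strand and of molecular identifiers and the annotation release are not given in the sources used here. The study's repeated-measures term is not defined and was not used.

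Counts were analysed with edgeR 4.0.16 in R 4.3.3. The filterByExpr function kept 13378 of 28380 genes, libraries were scaled by TMM, and treatment was tested with glmQLFit and glmQLFTest with Benjamini-Hochberg adjustment over all genes tested, called at an adjusted p under 0.05. Ratios of counts, with 0.5 added, were compared by exact two-sided permutation of libraries with scipy 1.17.1. Exact Clopper-Pearson intervals at 95% cover counting error only, since reads are not independent molecules. Positions and transcript lengths came from GENCODE 44, and lengths were known for 13324 of the genes tested. Replicates of one group differed by a chi-square per degree of freedom of 3.50 to 243, so none was counted as a repeat of another.

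Named genes were the 10 genes, genes overlapping or starting within 1 kb of them, up to 4 called genes of each list with the largest absolute log2 fold change and a mean of at least 1 CPM, and the 5 genes most like GABPB1 among those with at least 10 CPM. The 10 genes and the lists were chosen with earlier results of these data known. Alternatives were edgeR with other scalings, DESeq2 1.42.0, limma-voom 3.58.1 with quantile normalization or sample quality weights, no filter, a replicate block, 1 count added to the ratios and leaving out each library. The fit was tested on simulated counts without an outlying library, so that test does not cover a library like DMSO replicate 1. Of marker lists, the 4 epithelial keratin and adhesion genes found had a summed level of 490.1 to 856 CPM. Nearly all of it was KRT8 (mean 383 CPM in DMSO and 449 CPM in SFN) and KRT18 (196 and 236 CPM). KRT19 (0.12 and 0.08 CPM) and the adhesion gene EPCAM (0.03 and 0.05 CPM) had almost no counts, and CDH1 was not found.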

Additional observations from a re-analysis of the deposited data

Results flagged for a closer look

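In each group of 5 libraries, the gap between the highest or lowest library and its nearest neighbour was divided by the range and set against Dixon's critical value of 0.71. Of 28 groups examined, 3 passed it, all at DMSO replicate 1, where chance alone gives about 1 in 20, or 1.4 groups. For GABPB2 the value was 0.712, with 24.5 CPM in DMSO replicate 1 above 14.2 to 17.2 CPM in the other DMSO libraries. For PPRC1 it was 0.746, with 40.3 CPM below 83.7 to 98.5 CPM. For the ratio of GABPB2 to GABPA it was 0.809, with a ratio of 0.4997 above 0.243 to 0.279. That ratio uses the GABPB2 counts already flagged, and all DMSO groups share DMSO replicate 1. The 28 groups are therefore not independent, and 3 against 1.4 is only a rough guide. The same library was the highest DMSO library for GABPB1, GABPB2, TFAM, TFB2M and ESRRA and the lowest for GABPA, PPARGC1A, PPARGC1B and PPRC1. The cause was not tested.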

How the results depend on the processing

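Of 153 log2 fold changes of the 9 genes tested, each under 17 alternatives, 145 kept their direction and side of the threshold, among them all of those of GABPB1 (1.15 to 1.34), PPARGC1B (-4.08 to -3.71) and PPRC1 (-1.33 to -1.06). GABPA was not called, and 1 gene of the 10 was called higher, with libraries scaled by their totals only, where TFAM was at -0.014; TFAM was at -0.023 with quantile normalized limma-voom. GABPB2 was called with DESeq2, with quantile normalized limma-voom, with sample quality weights, without DMSO replicate 1 and without SFN replicate 3. Sample quality weights called 3874 genes higher and 4041 lower. Leaving out each library in turn gave 906 to 3058 genes higher and 1470 to 3193 lower, the most without DMSO replicate 1. With a replicate block, 911 genes were higher and 1530 lower, GABPB1 was at 1.24 and no gene of the 10 changed its call, while 3 upstream regulators of PGC-1 were called higher and ATP5F1B was not; same-numbered libraries correlated at -0.33 to 0.56, so the numbers were not taken to pair them.

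Leaving out each library kept the log2 difference of the ratio of GABPB1 to GABPA at 0.64 to 0.85 and that of PPARGC1B to PPRC1 at -3.01 to -2.59, each with 3 of 10 adjusted p-values under the threshold (0.0317 to 0.0635), where 4 against 5 libraries allow no permutation p below 0.0159. That of TFB2M to TFAM was -0.38 to -0.19, and called without SFN replicate 2 (adjusted p = 0.0423 by exact permutation). The ratio of GABPB2 to GABPA, at -0.17 to 0.17, turned positive without DMSO replicate 1 (0.17), SFN replicate 3 (0.10) and SFN replicate 5 (0.03). The nuclear targets of NRF1 and GABP had 0 to 21 genes called higher over all alternatives, with 21 under sample quality weights. The low counts of PPARGC1A and PPARGC1B limit what depth can show, and the causes were not tested.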
